A study of Aedes aegypti with 33 samples.

Results

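The genes described here are the antioxidant enzymes of the yellow fever mosquito Ae. aegypti that were taken from a list of 9 identifiers covering peroxiredoxins, catalase, superoxide dismutases and thioredoxin reductase. Members were found by matching those identifiers to the rows of the count tables, and 7 of the 9 were matched among 19712 genes in all, while AAEL004112 and AAEL014548 were not analysed here. The list gives these enzyme classes without pairing them with single identifiers. The annotation used here names 1 of the 7, AAEL002309, as TPX4, a thioredoxin peroxidase, and the other 6 are therefore given by identifier with no enzyme class. RNA was sequenced from 2 Ae. aegypti cell lines, Aag2 and A20, in 4 experiments, 11 groups and 33 libraries, with 3 biological replicates per group. Aag2 cells were kept for 72 h in Schneider's Drosophila medium, or for 72 h in L-15 medium, with 10% fetal bovine serum (FBS), without serum (0 μM heme), or without serum and with 10 μM heme. A20 cells were kept for 72 h with FBS in L-15, without serum in SF900 II (0 μM heme), or in SF900 II with 10 μM heme. The fourth experiment used Aag2 cells and Schneider's medium, with FBS throughout, and compared 48 h with and without 20 μM added heme. Both are continuous cultured lines and not a mosquito tissue, and their cell type was not checked here against markers. Without FBS, serum and the heme it carries were removed together, and in A20 cells the base medium was exchanged as well, so these cannot be told apart.

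Aerobic cells make superoxide and hydrogen peroxide continuously. Superoxide dismutases turn superoxide into hydrogen peroxide, which catalase splits into water and oxygen and which peroxiredoxins reduce with the help of thioredoxin. Thioredoxin reductase returns oxidized thioredoxin to its reduced form at the cost of NADPH. Heme is an iron-containing prosthetic group that can promote oxidation when it is free, and a blood-feeding mosquito releases large amounts of it while digesting hemoglobin.

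Libraries held between 22860764 and 38002762 counted reads, with a median of 26421952. The 7 antioxidant enzyme genes together took 0.0594% to 0.269% of them. The scaling factors of the trimmed mean of M values (TMM) were 0.685, 0.715 and 0.834 in A20 cells with 10 μM heme, with the factor of 0.834 in replicate 1, against 1.10 to 1.22 in the other A20 libraries. The 10 most abundant genes took 14.1% to 17.6% of the reads of those 3 libraries, and 10.0% to 11.5% in the other A20 libraries. Levels are given as TMM-scaled CPM (counts per 1e+06 scaled reads) within each experiment. Since gene length is not part of the unit, a level is compared between groups and not between genes, and levels set side by side across experiments rest on separate scalings. Changes are log2 fold changes from edgeR's quasi-likelihood test, with the standard error (SE), and were called at a false discovery rate (FDR) under 0.0001 over all genes tested. A change called by another test is given with the name of that test. All 7 genes passed the filter on low counts in each experiment.

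The counts of AAEL002309 could not be separated from those of a second gene. AAEL002309 spans positions 374160598 to 374177861 of chromosome 3 in the AaegL5 assembly. All 17264 of those bases lie inside AAEL002311, annotated as a putative ADP-ribosylation factor, which runs from 374132190 to 374190212 on the opposite strand. AAEL002311 had more counts than AAEL002309 in 33 of 33 libraries, by a ratio of 1.03 to 1.54 with a median of 1.27. In A20 cells with FBS the ratio was 1.03 to 1.06, and it lay within that range in the other A20 groups. From 0 to 10 μM heme the mean of AAEL002311 went from 106 to 526 CPM in A20 cells. In Aag2 cells in L-15 medium it went from 111 to 70.8 CPM. The use of strand in the counting was not given in the sources used here, so reads of the overlapping genes cannot be told apart, and every value of AAEL002309 is uncertain in this respect. The positions of the other 6 genes were not analysed here, and their overlap with other genes was not tested.

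**Figure D1:**
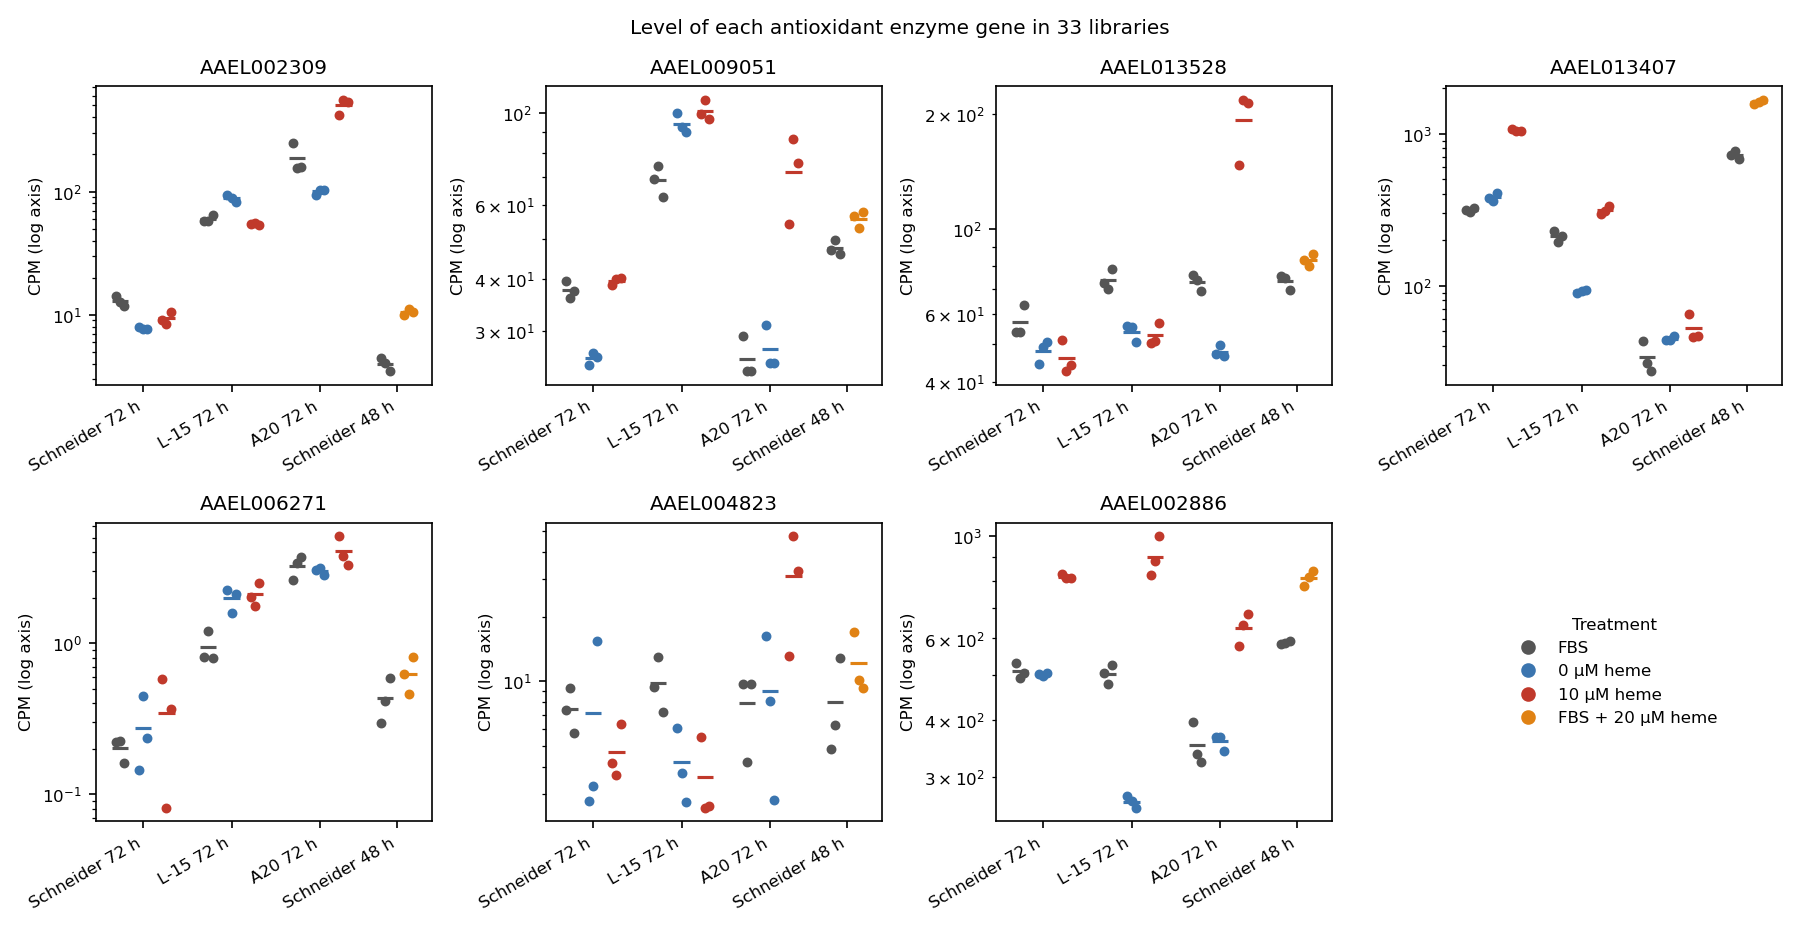
TMM-scaled CPM (log axis) of the 7 antioxidant enzyme genes, with 1 point per library, a bar at the mean of the 3 replicates, the experiment on the x axis and the treatment in colour. AAEL002309 ran from 3.98 CPM in Aag2 cells at 48 h with FBS to 504 CPM in A20 cells with 10 μM heme, and AAEL013407 from 33.8 CPM in A20 cells with FBS to 1621 CPM in Aag2 cells with 20 μM heme.

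The 7 genes differed widely in how far their levels moved over the 11 groups. AAEL002309 covered a 127-fold range of group means, from 3.98 ± 0.470 CPM (SD, n = 3) to 504 ± 75.6 CPM. Its lowest group was Aag2 cells at 48 h with FBS and its highest A20 cells at 72 h with 10 μM heme. That range thus also spans cell line, medium, time and experiment, and reads of AAEL002311 may be part of it. AAEL013407 covered 47.9-fold, and AAEL006271 covered 20.0-fold at very low counts. By contrast, AAEL004823 covered 8.71-fold, AAEL013528 4.20-fold, AAEL009051 3.91-fold and AAEL002886 3.39-fold. Of the 10 pairs of groups that were neighbours in the order of levels, the means ± SD overlapped in 1 for AAEL002309 and in 2 for AAEL013407, but in 10 for AAEL004823, whose order over groups was therefore not resolved. The overlapping pairs numbered 8 for AAEL006271, 7 for AAEL013528, 6 for AAEL002886 and 5 for AAEL009051. A single scaling over all 33 libraries changed no group's rank for AAEL002309, AAEL013407 and AAEL006271, and changed the rank of 4 to 8 groups for the other 4 genes.

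AAEL013407 was higher with heme in all 3 experiments on Aag2 cells. In Schneider's medium at 72 h its level was 313, 303 and 324 CPM with FBS, 374, 360 and 407 CPM in 0 μM heme, and 1065, 1034 and 1047 CPM in 10 μM heme. All 3 libraries with heme were above all 6 without it. The level rose 2.76-fold from 0 to 10 μM heme (log2 fold change 1.46, SE 0.0443, FDR = 1.39e-09) and 3.34-fold from FBS to 10 μM heme (1.74, SE 0.0447, FDR = 6.55e-10). In L-15 medium the same gene had 229, 193 and 211 CPM with FBS, 89.1, 92.3 and 93.6 CPM in 0 μM heme, and 294, 310 and 336 CPM in 10 μM heme. None of these 3 groups overlapped another. Without serum the level fell 2.30-fold (−1.20, SE 0.0688, FDR = 4.88e-08), and with 10 μM heme it rose 3.42-fold above 0 μM heme (1.77, SE 0.0695, FDR = 9.08e-09). It was then 1.48-fold above FBS (0.57, SE 0.0675, FDR = 1.5e-05), a call that was lost without replicate 3 of the FBS libraries (FDR = 0.000102).

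At 48 h, with serum present throughout, AAEL013407 had 724, 768 and 679 CPM with FBS alone and 1576, 1613 and 1673 CPM with 20 μM heme added. The groups did not overlap, and the gene rose 2.24-fold (log2 fold change 1.16, SE 0.0474, FDR = 3.11e-06). In A20 cells its 3 group means were below those of all 8 Aag2 groups, under the separate scalings and under a single scaling of all 33 libraries. It had 43.0, 31.1 and 27.4 CPM with FBS, 43.7, 44.2 and 46.5 CPM in 0 μM heme, and 65.2, 45.8 and 46.6 CPM in 10 μM heme. The last 2 groups overlapped and the difference between them did not pass the test (0.23, with an interval of 2 SE from −0.14 to 0.61, FDR = 0.298). Scaled by library size alone that difference was −0.45, so no direction can be given for it.

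AAEL002886 rose in the same 3 experiments on Aag2 cells, and from a narrower range of levels. In Schneider's medium at 72 h it had 531, 492 and 505 CPM with FBS, 502, 497 and 506 CPM in 0 μM heme, and 827, 813 and 812 CPM in 10 μM heme. The first 2 groups overlapped, and both lay below every library with heme. The rise from 0 to 10 μM heme was 1.63-fold (log2 fold change 0.70, SE 0.0311, FDR = 1.74e-08) and that from FBS was 1.60-fold (0.68, SE 0.0311, FDR = 2.56e-08). The difference without serum was −0.02, with an interval of 2 SE from −0.09 to 0.04 (FDR = 0.655). In L-15 medium it had 506, 479 and 526 CPM with FBS, 273, 267 and 258 CPM in 0 μM heme, and 825, 882 and 999.8 CPM in 10 μM heme. Every library without serum was below all 3 with FBS, and every library with heme was above them.

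In L-15 medium AAEL002886 fell 1.89-fold without serum (log2 fold change −0.92, SE 0.0669, FDR = 3.58e-07). It rose 3.39-fold from 0 to 10 μM heme (1.76, SE 0.0681, FDR = 8.55e-09) and ended 1.79-fold above FBS (0.84, SE 0.0666, FDR = 4.63e-07). At 48 h it had 583, 588 and 592 CPM with FBS and 779, 815 and 840 CPM with 20 μM heme. That rise of 1.38-fold (0.47, SE 0.0348, FDR = 7.76e-05) was the smallest called for the gene. The call was lost when any single one of the 6 libraries was left out, with an FDR of 0.000177 to 0.00104. In A20 cells it had 396, 338 and 325 CPM with FBS, 367, 368 and 343 CPM in 0 μM heme, and 579, 643 and 679 CPM in 10 μM heme. The libraries with heme were above all 6 others, but the differences of 0.82 from 0 μM heme (SE 0.108, FDR = 0.000129) and 0.84 from FBS (SE 0.108, FDR = 0.000155) missed the threshold. Both passed it without replicate 1 of the 10 μM heme libraries (FDR = 2.66e-05 and 2.95e-05). With all libraries both were called by edgeR's exact test (3.99e-07 and 2.29e-07) and DESeq2 (9.56e-13 and 7e-12), and that from 0 μM heme also with RLE size factors (8.52e-05). Scaled by library size alone they were 0.11 and 0.25, and neither was called.

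**Figure D2:**
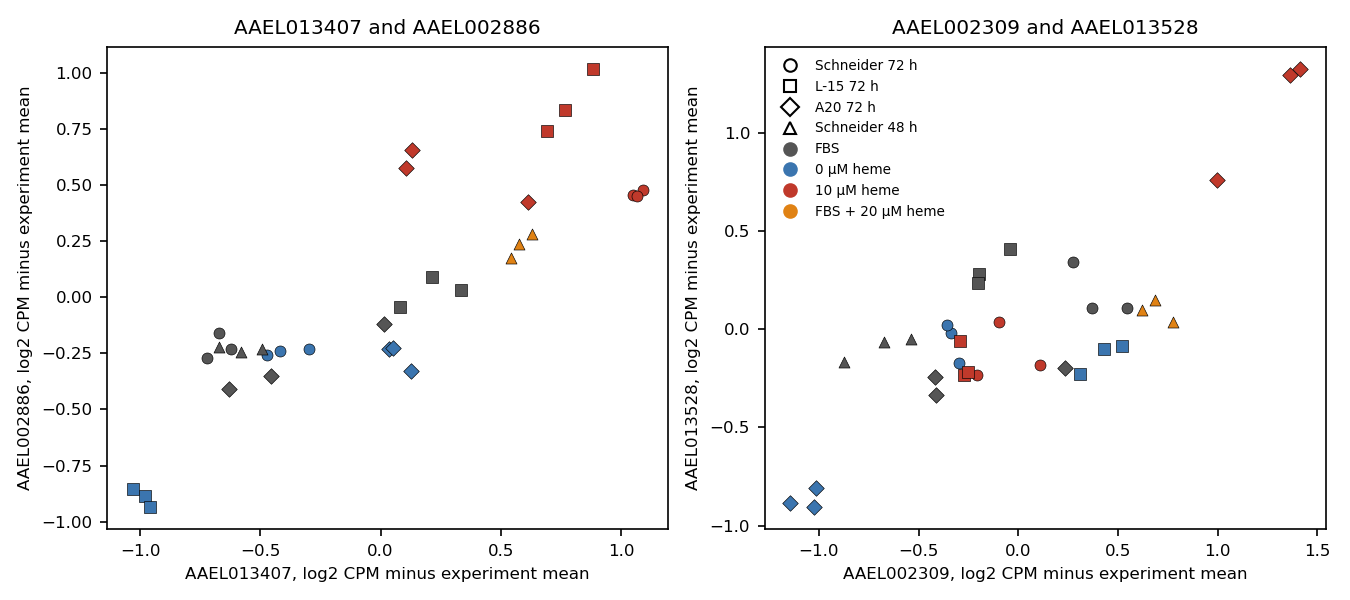
Log2 CPM minus the mean of its experiment for AAEL013407 and AAEL002886 (left) and for AAEL002309 and AAEL013528 (right), with 1 point per library, the experiment as marker shape and the treatment in colour. On the left the Aag2 libraries with heme lie at the upper right in all 3 experiments, and on the right the 3 A20 libraries with 10 μM heme lie apart from the other libraries at the upper right.

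**Figure D3:**
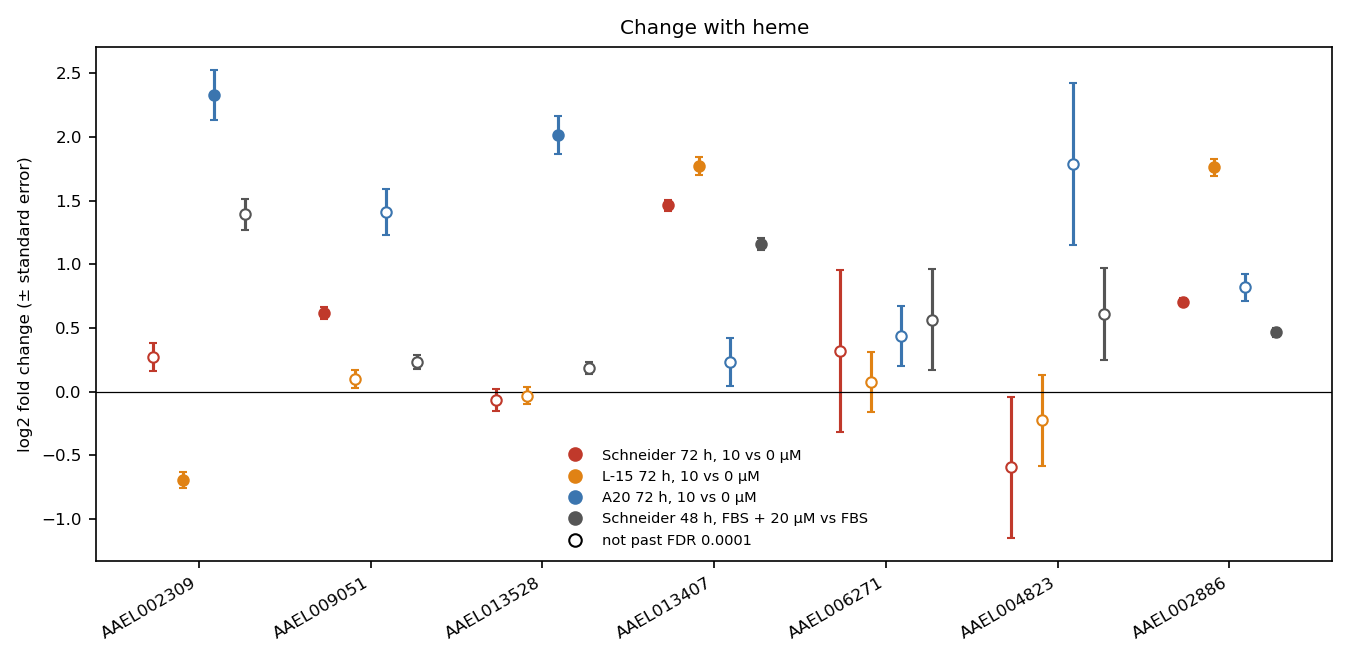
Log2 fold change with heme (y axis, ± SE) of each antioxidant enzyme gene in the 4 experiments, with filled points for an FDR under 0.0001. AAEL013407 and AAEL002886 have filled points above 0 in all 3 Aag2 experiments, whereas AAEL002309 is below 0 in L-15 medium and at 2.33 in A20 cells.

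Counted over the genes, 3 of the 7 rose from 0 to 10 μM heme in Schneider's medium, where 7.53% of the 13171 genes tested rose and 9.55% fell, and the other 4 were not called. The 3 were AAEL013407, AAEL002886 and AAEL009051, and the median log2 fold change of the 7 was 0.32 against 0.03 for all genes. In L-15 medium 2 rose and 1 fell, where 8.13% of 13990 genes rose and 9.87% fell, and the medians were 0.08 and 0.02. In A20 cells 2 rose and 5 were not called, where 9.79% of 12249 genes rose and 9.14% fell, with medians of 1.41 and −0.19. At 48 h 2 rose and 5 were not called, where 0.583% of 12007 genes rose and 0.183% fell, with medians of 0.57 and 0.01. Against FBS, 10 μM heme gave 2 higher in Schneider's medium, where 6.33% of all genes rose and 7.47% fell. It gave 3 higher and 1 lower in L-15 medium, where 15.5% rose and 18.2% fell. It gave 1 higher in A20 cells, where 4.47% rose and 6.38% fell. The comparisons with FBS and with 0 μM heme share the libraries with 10 μM heme. Over the 70 tests of 7 genes in 10 comparisons of treatments, those of serum removal included, 16 were called higher and 5 lower. Of all genes, 0.4% to 15.5% were called higher and 0.0327% to 18.2% lower, depending on the comparison. The tally thus has no single share to be set against, and no direction is read from it.

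The thioredoxin peroxidase AAEL002309 had opposite called changes with heme in Aag2 cells in L-15 medium and in A20 cells. In A20 cells it had 246, 156 and 157 CPM with FBS, 94.6, 104 and 103 CPM in 0 μM heme, and 418, 558 and 537 CPM in 10 μM heme. The 3 groups did not overlap, and the rise from 0 to 10 μM heme was 5.03-fold (log2 fold change 2.33, SE 0.194, FDR = 1.12e-05). This call was lost without replicate 1, 2 or 3 of the 0 μM heme libraries (FDR = 0.00012, 0.000139 and 0.000145). Against FBS the difference was 1.44 (SE 0.189, FDR = 0.000182), which passed the threshold without replicate 1 of the FBS libraries (9.25e-05), without replicate 1 of the 10 μM heme libraries (5.43e-05), with no filter on low counts (8.96e-05), and with the exact test and DESeq2. In L-15 medium Aag2 cells had 57.5, 57.3 and 64.2 CPM with FBS, 94.5, 88.9 and 81.8 CPM in 0 μM heme, and 54.5, 55.3 and 53.9 CPM in 10 μM heme. Every library in 0 μM heme was above the other 6. The level rose 1.48-fold without serum (0.57, SE 0.0632, FDR = 1.31e-05), a call lost without replicate 2 of the FBS or of the 0 μM heme libraries (FDR = 0.000116 and 0.000107). It fell 1.62-fold from 0 to 10 μM heme (−0.70, SE 0.0631, FDR = 3.97e-06).

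AAEL002309 was low throughout in Schneider's medium. At 72 h it had 14.3, 12.7 and 11.8 CPM with FBS, 7.95, 7.72 and 7.61 CPM in 0 μM heme, and 9.12, 8.45 and 10.5 CPM in 10 μM heme. The 3 groups did not overlap, but edgeR's quasi-likelihood test called none of the differences, with −0.74 without serum (FDR = 0.000618), 0.27 from 0 to 10 μM heme (FDR = 0.058) and −0.46 from FBS to 10 μM heme (FDR = 0.00442). The lower level without serum was called by edgeR's exact test (FDR = 1.33e-05) and DESeq2 (FDR = 6.64e-07). At 48 h it had 4.43, 4.03 and 3.49 CPM with FBS and 9.98, 11.1 and 10.4 CPM with 20 μM heme. Every library with heme was above every library without it, and the difference of 1.39 (SE 0.122) missed the threshold at an FDR of 0.000162. It passed with DESeq2 (FDR = 4.22e-15), with edgeR's exact test (FDR = 2.89e-12) and without a filter on low counts.

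AAEL009051 rose from 0 to 10 μM heme in Schneider's medium and from FBS to 10 μM heme in L-15 medium. At 72 h in Schneider's medium it had 39.7, 36.0 and 37.5 CPM with FBS, 25.0, 26.6 and 26.0 CPM in 0 μM heme, and 38.8, 39.9 and 40.2 CPM in 10 μM heme. Only the group without serum or heme stood apart. The level fell 1.46-fold without serum (log2 fold change −0.55, SE 0.0504, FDR = 2.94e-05), a call lost when any of the 6 FBS or 0 μM heme libraries was left out (FDR = 0.000121 to 0.000277). It rose 1.53-fold from 0 to 10 μM heme (0.62, SE 0.0505, FDR = 1.79e-06), and the groups with FBS and with heme overlapped (0.07, interval of 2 SE from −0.03 to 0.17). In L-15 medium it had 69.5, 74.6 and 62.7 CPM with FBS, 100.04, 92.3 and 89.7 CPM in 0 μM heme, and 99.0, 108 and 96.4 CPM in 10 μM heme. Here both groups without serum were above FBS and overlapped each other. The rise from FBS to 10 μM heme was 1.46-fold (0.55, SE 0.071, FDR = 3.08e-05), a call lost without replicate 1 or 3 of the FBS libraries (FDR = 0.000138 and 0.000118) or replicate 1 or 2 of the 10 μM heme libraries (FDR = 0.00015 and 0.000208). From FBS to 0 μM heme the difference of 0.45 missed the threshold (FDR = 0.00021) and was called by edgeR's exact test (3.55e-07), DESeq2 (3.41e-08), library size alone (5.32e-06) and with no filter on low counts (7.34e-05), and from 0 to 10 μM heme it was 0.10 (FDR = 0.231).

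In A20 cells AAEL009051 had 29.2, 24.1 and 24.1 CPM with FBS, 31.1, 25.1 and 25.2 CPM in 0 μM heme, and 54.3, 86.4 and 75.8 CPM in 10 μM heme. All 3 libraries with heme were above the other 6. The differences of 1.41 from 0 μM heme (SE 0.18, FDR = 0.000107) and 1.48 from FBS (SE 0.18, FDR = 0.000119) missed the threshold with all libraries and passed it without replicate 1 of the 10 μM heme libraries (FDR = 4.49e-06 and 4.69e-06). With all libraries both were called by edgeR's exact test (FDR = 8.63e-11 and 1.47e-11), by DESeq2 (2.86e-12 and 2.4e-12) and with no filter on low counts (4.92e-05 and 5.79e-05), and that from 0 μM heme also with RLE size factors (9.09e-05). Scaled by library size alone they were 0.69 and 0.87, and neither was called. At 48 h it had 46.9, 49.6 and 46.0 CPM with FBS and 56.5, 52.9 and 57.9 CPM with 20 μM heme, a difference of 0.23 that did not pass (FDR = 0.0161).

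AAEL013528 rose with heme in A20 cells and had small differences, not called, from 0 to 10 μM heme in Aag2 cells. From 0 to 10 μM heme its difference was −0.07 in Schneider's medium, with an interval of 2 SE from −0.24 to 0.11 (FDR = 0.559), and −0.03 in L-15 medium, with an interval from −0.16 to 0.10 (FDR = 0.714). Both differences turned above 0 when libraries were scaled by size alone, at 0.08 and 0.11. In A20 cells it had 76.1, 73.6 and 69.2 CPM with FBS, 47.3, 49.8 and 46.5 CPM in 0 μM heme, and 148, 219 and 214 CPM in 10 μM heme. The 3 groups did not overlap. The rise from 0 to 10 μM heme was 4.04-fold (log2 fold change 2.01, SE 0.15, FDR = 7.06e-06), and was lost without replicate 3 of the 0 μM heme libraries (FDR = 0.000103). The rise from FBS was 2.65-fold (1.41, SE 0.147, FDR = 5.22e-05), and that call held only when replicate 1 of the 10 μM heme libraries was the library left out, with an FDR of 0.000182 to 0.000589 without any of the other 8. Scaled by library size alone the rise from FBS was 0.80 and was not called (FDR = 0.000234). Per count of the ribosomal protein gene rpS7 it was 0.17 on the log2 scale, with overlapping groups.

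In L-15 medium AAEL013528 had 72.3, 69.8 and 78.8 CPM with FBS, 56.0, 55.4 and 50.7 CPM in 0 μM heme, and 50.5, 51.1 and 57.0 CPM in 10 μM heme. Both groups without serum lay below FBS. The level fell 1.39-fold from FBS to 10 μM heme (log2 fold change −0.48, SE 0.0669, FDR = 5.98e-05), and scaled by library size alone the difference was −0.09 (FDR = 0.27). Per count of rpS7, a ribosomal protein gene that fell in the same comparison, the direction was the opposite, at 0.42 on the log2 scale with groups that did not overlap. The call was also lost with a minimum of 1 CPM in 3 libraries (FDR = 0.000123) and without any one of 7 of the 9 libraries, the exceptions being replicate 3 of 0 μM heme and replicate 3 of 10 μM heme, with an FDR of 0.000112 to 0.000479. At 48 h it had 75.3, 74.4 and 69.5 CPM with FBS and 83.2, 80.0 and 86.3 CPM with 20 μM heme, a difference of 0.19 that did not pass (FDR = 0.0234).

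The size of the changes in A20 cells depended on what they were measured against. The ribosomal protein gene rpS7, AAEL009496, the reference gene of the study's quantitative PCR, had 1191, 1065 and 1028 CPM in 0 μM heme and 3543, 4184 and 4004 CPM in 10 μM heme in A20 cells. It rose 3.57-fold there (log2 fold change 1.84, SE 0.103, FDR = 2.01e-06). Per count of rpS7, AAEL002309 was 1.39-fold higher with 10 μM heme than with 0 μM heme and its groups did not overlap. AAEL013528 was 1.12-fold higher per count of rpS7, with overlapping groups. The other genes with separate groups were lower per count of rpS7, with ratios of 0.740 for AAEL009051, 0.493 for AAEL002886, 0.383 for AAEL006271 and 0.332 for AAEL013407. Scaling by library size alone moved the median of all genes by −0.70 in this comparison and by −0.58 against FBS, and the log2 fold changes of AAEL002309 and AAEL013528 were then 1.62 and 1.29. In Aag2 cells the same change of scaling moved the median by −0.04 to 0.39. There rpS7 differed by −0.27 in Schneider's medium and −0.29 in L-15 medium from 0 to 10 μM heme, and by 0.01 at 48 h. From FBS to 10 μM heme it fell by 0.90 in L-15 medium (FDR = 1.85e-09) and by 0.19 in Schneider's medium (FDR = 9.55e-05). Without serum it fell by 0.61 in L-15 medium (FDR = 7.75e-08). Replicate 1 of the A20 libraries with 10 μM heme had the lowest level of that group for AAEL002309, AAEL009051, AAEL013528, AAEL004823 and AAEL002886, and the highest for AAEL013407 and AAEL006271. Without this library 4 of the 7 genes rose in A20 cells from 0 to 10 μM heme, and 4 from FBS to 10 μM heme. The share of all genes called without it is not given here, so these counts are not a result about the 7 genes. The part of the scaling or of this library in the A20 results was not tested beyond these values.

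**Figure D4:**
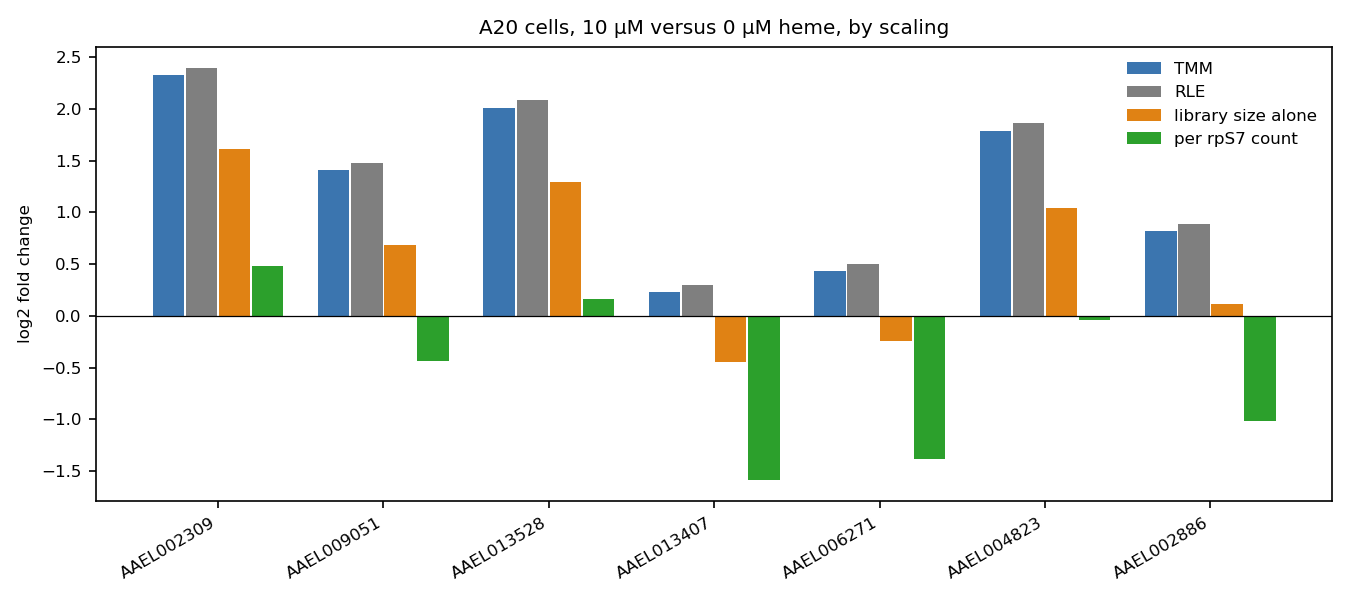
Log2 fold change from 0 to 10 μM heme in A20 cells (y axis) for each antioxidant enzyme gene, with a bar for each of 4 scalings. The bars of AAEL002309 are above 0 under all 4, from 0.48 per count of rpS7 to 2.40 under RLE, and those of AAEL013407 run from −1.59 to 0.29.

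For AAEL006271 and AAEL004823 edgeR's quasi-likelihood test called no change with treatment, and DESeq2 called 1, for AAEL004823 in L-15 medium from FBS to 10 μM heme (FDR = 1.36e-05). AAEL006271 had 2 to 109 counts per library, and its group means ran from 0.204 CPM in Schneider's medium with FBS to 4.07 CPM in A20 cells with 10 μM heme. In L-15 medium it had 0.814, 1.20 and 0.802 CPM with FBS, 2.26, 1.59 and 2.13 CPM in 0 μM heme, and 2.04, 1.78 and 2.51 CPM in 10 μM heme. Both groups without serum were above FBS, with differences of 1.08 (SE 0.254, FDR = 0.00341) and 1.16 (SE 0.256, FDR = 0.00177) that missed the threshold. The SE in Schneider's medium at 72 h was 0.635 to 0.669, and a change of that size was not detectable at this depth. AAEL004823 had 67 to 782 counts, but its replicates spread with a coefficient of variation of 24.1% to 100%, and a median over groups of 40.5%, against a median of 7.17% over the 10847 genes compared. In L-15 medium it had 9.43, 13.0 and 7.22 CPM with FBS, 6.07, 3.76 and 2.76 CPM in 0 μM heme, and 5.51, 2.59 and 2.62 CPM in 10 μM heme. Both groups without serum lay below FBS, with differences of −1.23 (SE 0.348, FDR = 0.0103) and −1.46 (SE 0.354, FDR = 0.00338) that missed the threshold. Its Schneider's medium libraries had 2.77, 3.27 and 15.5 CPM in 0 μM heme. In A20 cells it had 9.76, 4.23 and 9.72 CPM with FBS and 13.1, 47.5 and 32.7 CPM in 10 μM heme. These last groups did not overlap, and the difference of 1.97 (SE 0.641, FDR = 0.024) did not pass. In 0 μM heme the A20 libraries had 2.79 to 16.2 CPM, which overlapped those with 10 μM heme. That difference of 1.79 did not pass either (FDR = 0.0314).

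Without serum and the heme it carries, edgeR's quasi-likelihood test called AAEL009051 in Schneider's medium and AAEL002309, AAEL013407 and AAEL002886 in L-15 medium. The call of AAEL009051 was lost without any 1 of the 6 libraries compared. It was also lost with a block for replicate number (FDR = 0.000257) and in a fit of only the 2 groups (FDR = 0.000188). That of AAEL002309 was lost without either of 2 libraries. In Schneider's medium 1 of the 7 genes fell and 6 were not called, where 1.46% of genes rose and 1.04% fell. In A20 cells edgeR's quasi-likelihood test called 0 of the 7, where 0.4% of genes rose and 0.0327% fell. There 2 had an unadjusted p under 0.05 and also an FDR under 0.05, as did 29.5% of all genes. These were AAEL002309 at −0.89 (FDR = 0.00717) and AAEL013528 at −0.61 (FDR = 0.0129), of which DESeq2 called AAEL002309 and edgeR's exact test called 0. In L-15 medium 1 rose and 2 fell, where 10.8% of genes rose and 13.1% fell. In that medium the 2 groups were separate for all 7, against 61.9% of all genes, and all 7 had an FDR under 0.05, against 56.2% of all genes.

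**Figure D5:**
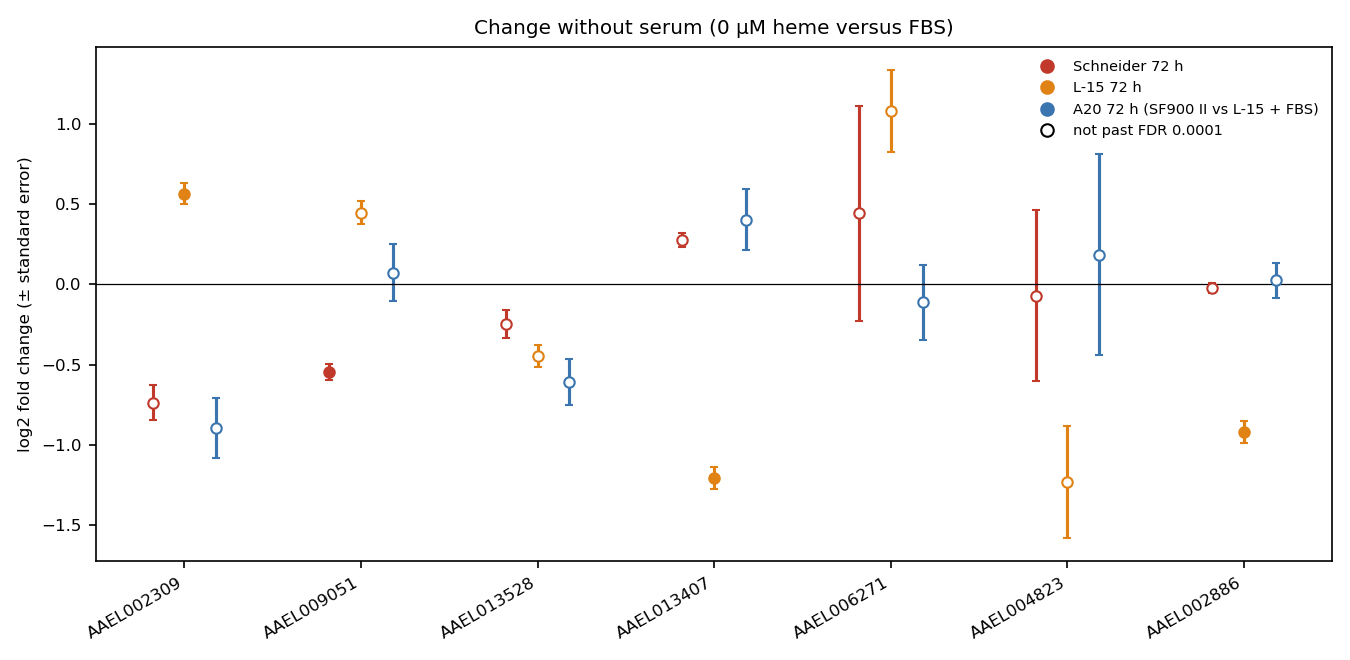
Log2 fold change without serum (0 μM heme against FBS, y axis, ± SE) of each antioxidant enzyme gene in the 3 experiments at 72 h, with filled points for an FDR under 0.0001. In L-15 medium AAEL002309 is above 0 and AAEL013407 and AAEL002886 are below it, and in Schneider's medium the filled point is AAEL009051.

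The responses of Aag2 cells in the 2 media were compared by testing the difference of the 2 responses, fitted over 18 libraries together. For serum removal, 4 of the 7 genes differed between media, where 22.1% of 14332 genes were called. The response in L-15 medium minus that in Schneider's medium was −1.45 for AAEL013407 (SE 0.0845, FDR = 1.15e-10), −0.87 for AAEL002886 (SE 0.0771, FDR = 3.11e-08), 1.33 for AAEL002309 (SE 0.113, FDR = 1.88e-08) and 1.02 for AAEL009051 (SE 0.0894, FDR = 2.7e-08). For 10 against 0 μM heme, 2 differed, where 9.87% of genes were called. These were AAEL002886, whose rise was larger in L-15 medium by 1.05 (SE 0.077, FDR = 1.25e-08), and AAEL002309, at −0.98 (SE 0.115, FDR = 3.34e-06). For AAEL013407 the rise with heme differed by 0.30 between media, which did not pass (SE 0.0837, FDR = 0.00933). AAEL009051, at −0.53 (FDR = 0.000155), missed the threshold and passed it without replicate 2 or 3 of the L-15 libraries with FBS (FDR = 8.08e-05 and 5.15e-05), with no filter on low counts (5.39e-05) and with DESeq2 (4.94e-06). Both interactions share the libraries with 0 μM heme, and the medium cannot be told apart from the experiment.

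Between A20 cells and Aag2 cells in L-15 medium, the response to 10 against 0 μM heme differed in 5 of the 7 genes, where 26.5% of 14594 genes were called. The response in A20 cells was larger by 3.17 for AAEL002309 (SE 0.207, FDR = 3.49e-09), by 2.19 for AAEL013528 (SE 0.164, FDR = 1.46e-08) and by 1.45 for AAEL009051 (SE 0.198, FDR = 9.5e-06). It differed by −1.40 for AAEL013407 (SE 0.209, FDR = 2.46e-05) and by −0.80 for AAEL002886 (SE 0.127, FDR = 4.39e-05). The call of AAEL013407 was lost (FDR = 0.000102 to 0.000127) without any one of 7 of the 18 libraries, which were replicates 2 and 3 in 0 μM and 3 in 10 μM heme of A20 cells, and replicates 1, 2 and 3 in 0 μM and 3 in 10 μM heme of Aag2 cells. That of AAEL002886 was lost (FDR = 0.000134 to 0.000274) without A20 replicate 1 or 2 grown in 0 μM heme, any Aag2 replicate grown in 0 μM heme, or Aag2 replicate 2 or 3 grown in 10 μM heme. Under library size alone the differences were 2.17 for AAEL002309, 1.18 for AAEL013528, −2.37 for AAEL013407, −1.79 for AAEL002886 and 0.44 for AAEL009051, of which AAEL009051 was then no longer called (FDR = 0.0274). rpS7 differed by 2.28 in the same test (SE 0.104, FDR = 6.7e-11). Per count of rpS7, AAEL009051 changed by −0.44 in A20 cells and by 0.40 in Aag2 cells in L-15 medium, on the log2 scale. AAEL013528 changed by 0.16 and 0.26, so on that scale neither response was larger in A20 cells. In this comparison the base medium without serum also differed, SF900 II against L-15.

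With FBS present, levels differed between experiments before any treatment. Each comparison here sets separate experiments side by side, so cell line or medium cannot be told apart from experiment. A20 cells had a 4.80-fold higher level of AAEL002309 than Aag2 cells in L-15 medium (2.26, SE 0.15, FDR = 9.25e-10) and a 5.28-fold higher level of AAEL006271 (2.40, SE 0.26, FDR = 3.99e-07). Their level of AAEL013407 was 4.06-fold lower (−2.02, SE 0.153, FDR = 4.64e-09). AAEL009051 was 1.74-fold lower (−0.80, SE 0.141, FDR = 9.58e-05), a call lost without any one of 15 of the 18 libraries (FDR = 0.000109 to 0.000828), the exceptions being replicate 1 in 0 μM heme and replicates 1 and 2 in 10 μM heme of A20 cells. These 4 of 7 stood against 38.1% of all genes called. The difference of 0.61 for AAEL013528 missed the threshold (FDR = 0.000189) and passed it without replicate 1 of the A20 libraries in 10 μM heme (FDR = 6.64e-07). Aag2 cells in L-15 medium had a 3.98-fold higher level of AAEL002309 than in Schneider's medium (1.99, SE 0.0795, FDR = 1.76e-12) and a 1.57-fold higher level of AAEL009051 (0.65, SE 0.0631, FDR = 1.39e-07). AAEL013407 was 1.73-fold lower there (−0.79, SE 0.0596, FDR = 6.39e-09). These 3 of 7 stood against 17% of all genes called. Levels of the same 3 genes also differed between the untreated groups of the 48 h and 72 h experiments that share line and medium. Under separate scalings, the means at 48 h and 72 h were 3.98 and 12.9 CPM for AAEL002309 and 47.5 and 37.7 CPM for AAEL009051. For AAEL013407 they were 724 and 314 CPM. Time and experiment changed together there, and these differences were not tested.

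Other genes of thiol and superoxide metabolism were taken by annotation, and 4 were found among the 1547 identifiers with a name in the annotation used here, which is part of the study's own list of genes and thus not an independent choice. They are AAEL003599, annotated as sulfiredoxin, which repairs overoxidized peroxiredoxins, AAEL013980, a putative glutaredoxin, which reduces disulfides with glutathione, AAEL019937, a Cu-Zn superoxide dismutase, and AAEL005931, a 6-phosphogluconate dehydrogenase, which makes NADPH. From 0 to 10 μM heme, 2 of the 4 rose in A20 cells and 2 were not called, where 9.79% of all genes rose and 9.14% fell, with a median of 1.29 against −0.19 for all genes. AAEL019937 had 122, 125 and 116 CPM in 0 μM heme and 330, 673 and 667 CPM in 10 μM heme there, a rise of 4.60-fold (2.20, SE 0.239, FDR = 4.2e-05), and AAEL003599 rose 2.72-fold (1.45, SE 0.145, FDR = 2.74e-05). In this comparison the mean of rpS7 went from 1095 to 3910 CPM. Other scalings, values per count of rpS7 and fits without single libraries were not run for these 4 genes. Their A20 changes thus rest on TMM scaling alone. In L-15 medium 1 rose, AAEL005931, at 1.35-fold (0.44, SE 0.0516, FDR = 2.83e-05), where 8.13% of all genes rose, and the medians were −0.13 and 0.02. The same gene was the 1 that rose in Schneider's medium, at 1.92-fold (0.94, SE 0.0651, FDR = 4.96e-07), where 7.53% of all genes rose, and the medians were 0.02 and 0.03. At 48 h edgeR's quasi-likelihood test called 0 of the 4 and all 4 had an FDR under 0.05, as did 22.3% of all genes, with log2 fold changes of 0.16 to 0.39. Without serum in L-15 medium AAEL003599 rose 1.60-fold (0.68, SE 0.0553, FDR = 8.64e-07) and AAEL019937 fell 2.42-fold (−1.27, SE 0.0918, FDR = 3.35e-07), where 10.8% of all genes rose and 13.1% fell, and the medians were −0.34 and 0.02.

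Genes were ranked by how alike their pattern was to that of the antioxidant enzyme gene with the largest called change in each comparison with heme, by Pearson's r of log2 CPM minus the mean of the experiment, over 33 libraries and 10847 genes. These libraries share their treatments and scaling, so r is a description. For AAEL013407, with the largest called change at 48 h, in both comparisons in Schneider's medium and from 0 to 10 μM heme in L-15 medium, the closest were AAEL005142 (r = 0.894) and AAEL002107 (r = 0.875), neither of which has a name in the annotation used. For AAEL002309, with the largest from 0 to 10 μM heme in A20 cells, the closest were the overlapping AAEL002311 (r = 0.996) and AAEL024717 (r = 0.939). For AAEL013528, the 1 gene called in A20 cells from FBS to 10 μM heme, they were AAEL000180 (r = 0.977) and AAEL001619 (r = 0.973). For AAEL002886, with the largest called change in L-15 medium from FBS to 10 μM heme, they were AAEL015653 (r = 0.924) and AAEL024616 (r = 0.917).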

How the data were processed

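RNA-seq of 33 libraries was used. Per the labels and the study's methods, the authors aligned reads to AaegL5 (HISAT2 2.1.0), dropped those below mapping quality 10 (SAMtools) and took counts over transcripts (bedtools 2.19.1). Counting options were not given in the sources used here. The deposited values are raw counts for 19712 identifiers. The labels give a small RNA kit for the 48 h experiment. The study's methods name other kits without tying them to experiments.

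The test was that of edgeR 4.0.16 in R 4.3.3 (filterByExpr, TMM, quasi-likelihood F test, all libraries of an experiment in 1 fit, Benjamini-Hochberg adjustment over all genes, FDR of 0.0001 as in the study). SE was the log2 fold change divided by the square root of F. Interactions and level differences came from joint fits of 18 libraries. Steps were tested on simulated data. Alternatives are given in the closing section, with DESeq2 1.42.0 among them. Figures were drawn with matplotlib 3.10.9. Every gene of the list is named, and the further genes were chosen by annotation. The members and lists were chosen with earlier results of these data known. With 3 against 3 libraries, an exact permutation test cannot go below p = 0.1.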

Additional observations from a re-analysis of the deposited data

Results flagged for a closer look

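The results here stood out because a response differed between experiments in a test of the difference itself, an interaction in edgeR's quasi-likelihood test with an FDR under 0.0001. For 10 against 0 μM heme, the response of A20 cells minus that of Aag2 cells in L-15 medium was 3.17 for AAEL002309, 2.19 for AAEL013528, 1.45 for AAEL009051, −1.40 for AAEL013407 and −0.80 for AAEL002886. For the same comparison, the response in L-15 medium minus that in Schneider's medium was −0.98 for AAEL002309 and 1.05 for AAEL002886. For serum removal it was 1.33 for AAEL002309, 1.02 for AAEL009051, −0.87 for AAEL002886 and −1.45 for AAEL013407. Cell line, base medium and experiment cannot be told apart in these differences. Per count of rpS7, which itself rose with heme in A20 cells, the response of AAEL009051 was −0.44 there and 0.40 in Aag2 cells in L-15 medium. That of AAEL013528 was 0.16 and 0.26, so neither was larger in A20 cells on that scale.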

How the results depend on the processing

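No called change of an antioxidant enzyme gene reversed under the alternative tests, filters and normalizations or without any 1 library. Per count of rpS7, AAEL013528 from FBS to 10 μM heme in L-15 turned from −0.48 to 0.42. On that scale AAEL009051 changed from 0 to 10 μM heme by −0.44 in A20 cells and by 0.40 in L-15. The difference of these is opposite in sign to the called interaction of 1.45. AAEL013528 changed by 0.16 in A20 cells and by 0.26 in L-15. The mean of rpS7 itself went from 1095 to 3910 CPM in A20 cells and from 1272 to 1037 CPM in L-15. At an FDR of 0.05, 56.2% of all genes were called without serum in L-15, 29.5% without serum in A20 cells and 22.3% at 48 h. For the other alternatives no share of all genes is given here. The counts below thus describe the processing and are not a result about these genes. Of the 7 genes, the number called moved as follows. With an FDR of 0.05 it was 3 without serum, and 4 for 10 μM heme against FBS, in Schneider's medium, 7 without serum and 6 for 10 μM heme against FBS in L-15, 2 without serum, 6 for 10 μM heme against FBS and 5 against 0 μM heme in A20 cells, 5 at 48 h, 4 for the heme interaction between media, 6 for that between lines, and 5 for the level between media and between lines. Without serum in Schneider's medium it was 2 under edgeR's exact test, 3 under DESeq2, 0 with the replicate block and 0 in a fit of only the 2 groups. Without serum in L-15 it was 5 under the exact test, DESeq2 and no filter, and 4 under library size alone. For 10 μM heme against FBS in L-15 it was 5 under DESeq2, 3 under library size alone, the replicate block or a minimum of 1 CPM in 3 libraries, and 1 in a fit of only the 2 groups. In A20 cells without serum it was 1 under DESeq2. In A20 cells with 10 μM heme against FBS it was 4 under the exact test and DESeq2, 3 with no filter, and 0 under library size alone, the replicate block or a fit of the 2 groups. In A20 cells with 10 against 0 μM heme it was 4 under the exact test, DESeq2 and RLE, 3 with no filter, and 1 with the replicate block or a fit of the 2 groups. At 48 h it was 3 under the exact test, DESeq2 or no filter. It was 3 for the heme interaction between media under DESeq2 or no filter, 4 for that between lines under library size alone, and 4 for the level between media under DESeq2. The replicate block gave 1 at 48 h, 3 for the heme interaction of A20 and Aag2 cells, and 2 for the level between lines. Leaving out 1 library gave, in Schneider's medium, 0 to 1 without serum, 3 to 3 for 10 against 0 μM heme and 2 to 2 against FBS. In L-15 it gave 2 to 3, 3 to 3 and 1 to 4, in A20 cells 0 to 0, 0 to 4 and 0 to 4, and at 48 h 1 to 1. For the interactions it gave 3 to 5 between lines, 2 to 3 for heme between media and 4 to 4 for serum, and for levels 3 to 5 between lines and 3 to 3 between media. The cause of these moves was not tested. Over the 4 experiments the replicate numbers did not pair the libraries: 1 of 30 correlations of same-numbered libraries was over 0.1, and 7 of 33 libraries correlated best with their own number. That 1 was A20 replicate 1 with FBS and in 0 μM heme (0.125), where replicates 2 and 3 had 0.0615 and 0.0472. In each A20 group, replicate 1 differed more from replicates 2 and 3 than those did from each other. The minimum of 1 CPM in 3 libraries moved no other count. A scaling over all 33 libraries, chosen after seeing the data, moved 46 of 77 group means by over 1 SD. Depth limits AAEL006271, and replicate spread limits AAEL004823.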
